A study of Homo sapiens with 6 samples.

Results

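The OAS family is the set of 4 genes OAS1, OAS2, OAS3 and OASL, whose levels were followed in A2780, a human ovarian cancer cell line. The members were the rows of the deposited count table that carry these 4 symbols, and they make up 4 of 16571 gene symbols in the table and 4 of the 10695 that passed a filter on low counts. The family was chosen on the values of the same contrast that is described here, so the levels and fold changes of the members are given as a description, with no test. The libraries were 3 from cells given the pGIPZ-NC control vector and 3 from cells given shUSP39, a hairpin against USP39. USP39 is a ubiquitin-specific protease family member known as a component of the spliceosome, and the comparison asked how its knockdown changed gene expression. Both groups received their vector by lentivirus, and pGIPZ was also the backbone into which the study cloned its hairpins. The methods describe stable lines selected with puromycin for 2 weeks after infection. The methods give 2 hairpins, and which of them the shUSP39 libraries carried is not given in the sources used here. The series describes its 3 libraries per group as biological triplicates. The level of USP39 was not analysed here, so the labels were not checked against the targeted gene. In this design, an effect of the expressed hairpin itself cannot be told apart from an effect of lower USP39, and it was not tested.

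OAS1, OAS2 and OAS3 encode 2′-5′-oligoadenylate synthetases. These enzymes bind double-stranded RNA, a typical product of viral replication, and join ATP into short 2′-5′-linked oligoadenylates (2-5A). The 2-5A serves as a second messenger of the antiviral response. OASL, the 2′-5′-oligoadenylate synthetase like protein, lacks the synthetase activity, carries ubiquitin-like domains and is known to act on the RNA sensor RIG-I. All these OAS genes are classical interferon-stimulated genes, which are transcribed when the factor ISGF3 binds an interferon-stimulated response element in the promoter.

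OAS1 (chr12:113343661-113371024), OAS3 (chr12:113375856-113414265) and OAS2 (chr12:113416200-113449528) lie side by side on the plus strand of chromosome 12 in GRCh37. The cluster spans 106 kb, with 4.83 kb between OAS1 and OAS3 and 1.94 kb between OAS3 and OAS2. OASL (chr12:121455566-121477049) is on the minus strand 8.01 Mb further along the same chromosome. In the annotation, the long non-coding RNA gene ENSG00000257452 runs antisense across OAS1, OAS3 and OAS2. Whether the deposited counts used strand is not given in the sources used here, so reads from this gene cannot be told apart from reads of these 3 members.

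The RefSeq promoter table (GRCh38.p14) held 2 of the 4 members, OAS1 and OAS3, and OAS2 and OASL had no entry. They are shown because these genes are neighbours in the cluster and are both known interferon targets. Each sequence runs 5′ to 3′ on the plus strand from 250 bases before to 50 bases after the gene's start, at chr12:112906712-112907011 for OAS1 and chr12:112938224-112938523 for OAS3. Capitals mark matches to GAAANGAAA or GAAANNGAAA, a pair of GAAA repeats with a gap of 1 or 2 bases as in interferon-stimulated response elements, searched on both strands.
OAS1: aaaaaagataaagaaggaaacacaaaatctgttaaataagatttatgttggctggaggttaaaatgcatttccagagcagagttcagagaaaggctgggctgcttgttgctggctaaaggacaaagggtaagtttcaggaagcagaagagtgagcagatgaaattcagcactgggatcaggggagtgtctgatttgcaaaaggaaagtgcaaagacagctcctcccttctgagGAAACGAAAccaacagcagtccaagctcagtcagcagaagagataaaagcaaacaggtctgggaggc
OAS3: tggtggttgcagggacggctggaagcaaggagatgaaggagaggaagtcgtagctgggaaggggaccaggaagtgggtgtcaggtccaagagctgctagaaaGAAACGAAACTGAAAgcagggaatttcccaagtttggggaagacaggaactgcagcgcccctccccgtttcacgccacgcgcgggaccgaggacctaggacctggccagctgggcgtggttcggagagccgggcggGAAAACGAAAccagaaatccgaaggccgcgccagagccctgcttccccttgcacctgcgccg
OAS1 held 1 match, GAAACGAAA, whose first base was 17 bases before the start. OAS3 held a GAAANGAAA match 148 bases before the start that overlapped a GAAANNGAAA match 143 bases before it. A further GAAANNGAAA match, GAAAACGAAA, stood 12 bases before the start of OAS3. Of all 35116 promoters of this length in the table, 3.12% held GAAANGAAA, 3.57% held GAAANNGAAA and 6.40% held either. A match is a description of the letters and no evidence of binding.

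The libraries held 28294819 to 32939264 counts each. In the pGIPZ-NC libraries 12662 to 12809 genes had a count. shUSP39 replicate 1 was near this range with 12819 genes, while shUSP39 replicates 2 and 3 had 15446 and 14890 genes with a count and stood apart from the rest. The fold change of each OAS gene was therefore also taken from shUSP39 replicate 1 alone against the 3 pGIPZ-NC libraries, a fit in which the controls alone supply the spread and the single shUSP39 library is assumed to vary like them. Of 7 ovarian carcinoma markers 6 were in the table, and their summed level was 22.2 to 25.4 CPM, that is counts scaled to 1000000 per library, in the pGIPZ-NC libraries and 32.6 to 39.5 CPM in the shUSP39 libraries. Of this list PAX8 and EPCAM had at most 6 counts in any library. MUC16 had 5, 1 and 1 counts in the pGIPZ-NC libraries and 6, 150 and 71 in the shUSP39 libraries. KRT18 held most of the summed level and rose by 0.56 on the log2 scale (edgeR adjusted p = 1.51e-05), and KRT8 fell from 28, 37 and 26 counts to 3, 0 and 0 (edgeR adjusted p = 4.13e-05). Of 8 leukocyte markers 6 were in the table, with a summed level of 9.45 to 12.01 CPM in the pGIPZ-NC libraries and 11.4 to 12.2 CPM in the shUSP39 libraries. PTPRC, a marker of leukocytes, had at most 7 counts in any library. Most of this level came from CD68, with a log2 fold change of 0.05 (edgeR adjusted p = 0.825). The 3 fibroblast markers summed to 7.70 to 11.6 CPM in the controls and 7.22 to 8.55 CPM in the shUSP39 libraries, and of these DCN fell from 31, 22 and 49 counts to 0, 1 and 6 (edgeR adjusted p = 0.000191). No marker in the table was at 0 in all 6 libraries. The part of these markers and of the added genes in the results was not tested.

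All 4 OAS genes had higher levels in every shUSP39 library than in any pGIPZ-NC library, and the size of the difference ranged from 1.18-fold for OAS3 to 112-fold for OAS2. OASL and OAS1 stood between them with 60.4-fold and 7.34-fold. Of all genes tested, 21.7% were likewise higher in each shUSP39 library than in every pGIPZ-NC library. OAS1, OAS2 and OASL, but not OAS3, differed by more than 2-fold, a size at which 4.53% of all genes tested were called higher at an adjusted p under 0.05. Since the members were chosen for these values, nothing is read from either count. In bulk libraries, a change in the share of cells that express a gene and a change in RNA per cell cannot be told apart. The levels of different members are not compared as amounts of RNA, because the table lists only part of the known transcripts of some of them.

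OAS2 encodes the middle-sized synthetase. It had 5, 1 and 2 counts in pGIPZ-NC replicates 1, 2 and 3, and 343, 352 and 202 counts in shUSP39 replicates 1, 2 and 3. The gene was thus close to undetected in the controls and clearly present in each knockdown library, with replicate 3 the lowest of them. Its mean level was 0.0861 ± 0.0644 CPM in the controls against 9.68 ± 2.50 CPM in the shUSP39 libraries (SD, n = 3 each). The fitted log2 fold change was 6.74 (SE 0.35), the 12th highest rank of the 10695 genes. OAS2 passed the filter on low counts only through the shUSP39 libraries, where it was high, so the rank is a description. With 8 counts in all 3 controls together the fold was uncertain. On the log2 scale it ranged from 6.33 without pGIPZ-NC replicate 2 to 7.50 without pGIPZ-NC replicate 1, which held 5 of those counts. From shUSP39 replicate 1 alone it was 6.89 (SE 0.42).

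OASL had 14, 12 and 26 counts in pGIPZ-NC replicates 1, 2 and 3, and 1096, 1082 and 1029 counts in shUSP39 replicates 1, 2 and 3. The 3 knockdown libraries were nearly alike, with a coefficient of variation of 1.58%, against 52.1% in the controls, where pGIPZ-NC replicate 3 was highest. The mean level was 0.576 ± 0.3003 CPM in the controls against 34.8 ± 0.551 CPM in the shUSP39 libraries (SD, n = 3 each). This gave a log2 fold change of 5.94 (SE 0.17), the 14th highest rank. It stayed between 5.69 and 6.41 when any single library was left out, and it was 5.91 from shUSP39 replicate 1 alone. In the pGIPZ-NC libraries 9.41% of the genes tested had a lower mean CPM than OASL, and in the shUSP39 libraries 65.4% had.

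OAS1, the smallest synthetase, had 13, 1 and 14 counts in pGIPZ-NC replicates 1, 2 and 3, and 60, 74 and 76 counts in shUSP39 replicates 1, 2 and 3. The groups did not overlap, but the controls were uneven, since pGIPZ-NC replicate 2 held a single count. The mean level was 0.311 ± 0.247 CPM in the controls against 2.29 ± 0.365 CPM in the shUSP39 libraries (SD, n = 3 each). OAS1 ranked 70 of all genes with a log2 fold change of 2.88 (SE 0.48), which ranged from 2.33 without pGIPZ-NC replicate 2 to 3.36 without pGIPZ-NC replicate 3. From shUSP39 replicate 1 alone the log2 fold change was 2.59 (SE 0.74). OAS1 stayed a weakly counted gene in the knockdown libraries, where 26.5% of the genes tested had a lower mean CPM.

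OAS3, the largest synthetase, was already well counted in the controls. It had 3206, 3402 and 2830 counts in pGIPZ-NC replicates 1, 2 and 3, and 3812, 3484 and 3742 counts in shUSP39 replicates 1, 2 and 3. Scaled for depth these were 100.6, 105 and 100.2 CPM in the controls and 119, 114 and 127 CPM in the knockdown libraries, so the groups stood apart by a small margin. The mean was 102 ± 2.51 CPM in the controls against 119.8 ± 6.37 CPM in the shUSP39 libraries (SD, n = 3 each). The log2 fold change of 0.23 (SE 0.05) ranked 2870 among all genes. It stayed between 0.19 and 0.27 when any single library was left out, and it was 0.23 from shUSP39 replicate 1 alone. In the controls 79.7% of the genes tested had a lower mean CPM than OAS3, and in the knockdown libraries 82.3% had. CPM is not corrected for transcript length, and OAS3 has the longest annotated coding transcript of the members, at 9696 bases.

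**Figure D1:**
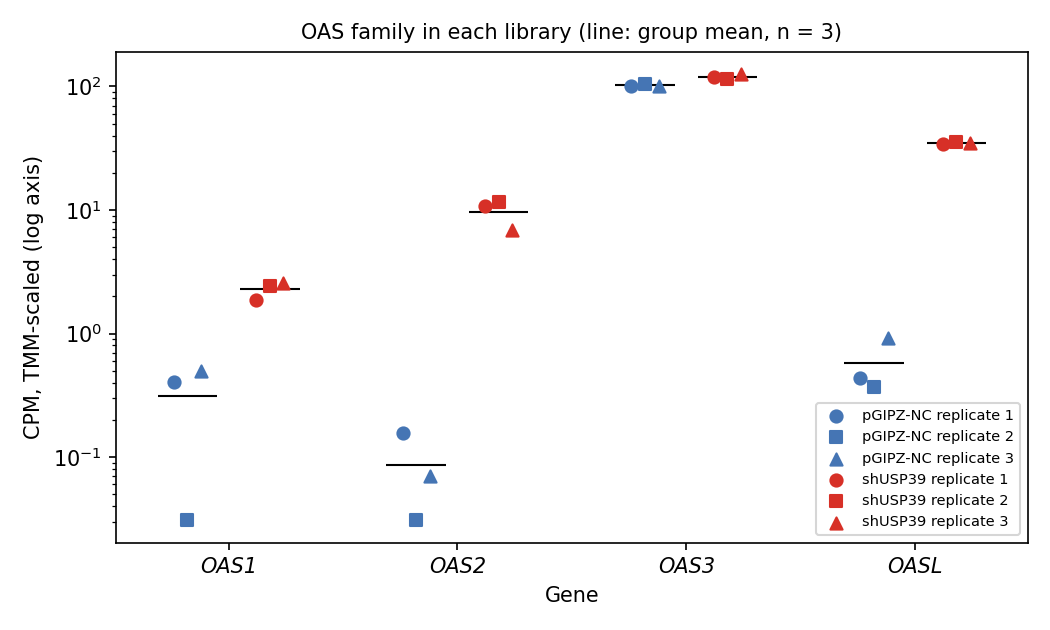
Level of OAS1, OAS2, OAS3 and OASL (x axis) in CPM scaled by TMM (y axis, log scale), with 1 point for each of the 3 pGIPZ-NC libraries (blue) and 3 shUSP39 libraries (red) and a line at each group mean. OAS2 and OASL sit far above their controls, OAS1 less so, and OAS3 moved from a mean of 102 CPM to 119.8 CPM.

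The unequal changes altered which members supplied the family's reads. The summed level of the 4 genes was 103 ± 2.04 CPM in the controls against 167 ± 3.83 CPM in the shUSP39 libraries (SD, n = 3 each). OAS3 held 99.0% ± 0.527 of these counts in pGIPZ-NC and 71.9% ± 2.16 in shUSP39. The OASL share was 0.563% ± 0.299 in pGIPZ-NC and 20.9% ± 0.685 in shUSP39. OAS2 went from 0.0844% ± 0.0639 to 5.84% ± 1.62 and OAS1 from 0.306% ± 0.244 to 1.37% ± 0.211 (SD, n = 3 throughout). These are shares of the reads in the table and not of molecules, since the members differ in transcript length and in how many of their known transcripts the table lists.

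OAS2 was the member with most transcript detail, with 3 RefSeq transcripts in the table. NM_002535.2 had 0, 1 and 1 counts in pGIPZ-NC replicates 1, 2 and 3, and 165, 203 and 93 counts in shUSP39 replicates 1, 2 and 3. NM_016817.2 had 0, 0 and 1 counts against 125, 116 and 76. NM_001032731.1 had 5, 0 and 0 counts against 53, 33 and 33, so the only counts of this transcript in the controls came from pGIPZ-NC replicate 1. All 3 transcripts were therefore higher in every shUSP39 library than in any control. Of the OAS2 counts in the shUSP39 libraries, NM_002535.2 held 50.6% ± 6.21, NM_016817.2 held 35.7% ± 2.43 and NM_001032731.1 held 13.7% ± 3.79 (SD, n = 3). The ratio of summed counts, scaled for depth, was 232 for NM_002535.2 (95% interval 63.7 to 1917), from 2 control counts. For NM_016817.2 it was 318 (56.7 to 12615), from 1 control count, and for NM_001032731.1 it was 23.9 (9.96 to 75.0), from 5. The intervals are exact (Clopper-Pearson) and cover counting error only. Whether the ratios differ between the transcripts was not tested.

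**Figure D2:**
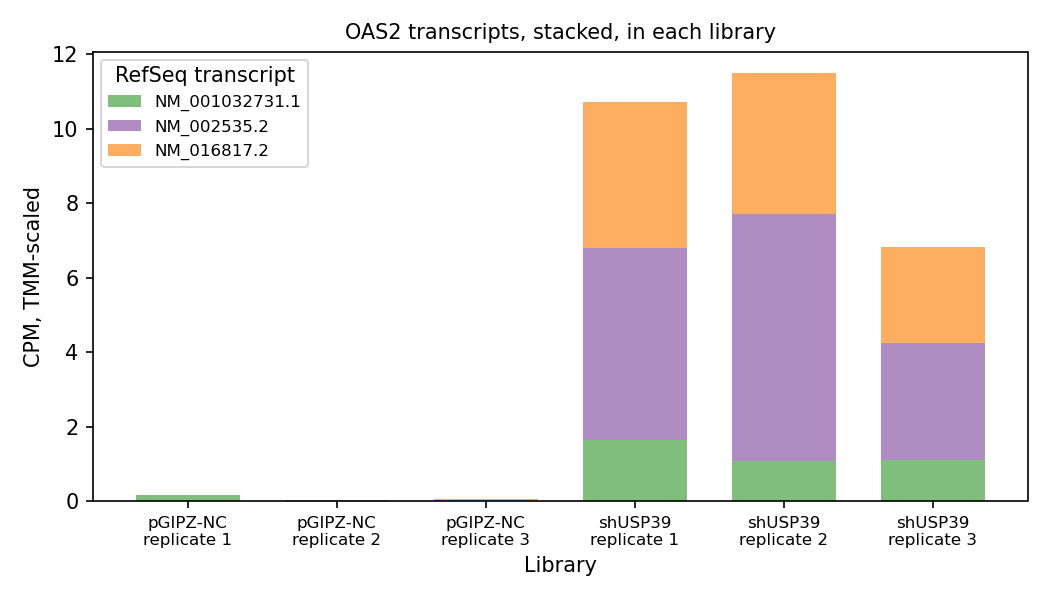
Level of the 3 OAS2 transcripts in CPM scaled by TMM (y axis), stacked in 1 bar for each of the 6 libraries (x axis). The pGIPZ-NC bars are close to 0, and in each shUSP39 bar NM_002535.2 is the largest part and NM_001032731.1 the smallest.

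OAS1 had 2 transcripts in the table. NM_016816.3 had 12, 1 and 14 counts in the pGIPZ-NC libraries and 60, 74 and 74 in the shUSP39 libraries, which was 208 of the 210 OAS1 counts there. NM_002534.3 had 1, 0 and 0 counts against 0, 0 and 2, too few for a fold change. The table listed 2 of the 14 protein-coding RefSeq transcripts of OAS1 in the GRCh38.p14 annotation, 1 of 2 for OAS3 and 1 of 5 for OASL, and 3 of 3 for OAS2. OAS3 was counted as NM_006187.3 and OASL as NM_003733.3. Genes with 1 annotated RefSeq transcript had a median of 2.59 CPM and those with 4 or more a median of 1.31 CPM. How reads shared by several transcripts were counted is not given in the sources used here, so levels of genes with many transcripts may be too low.

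Among 6 reported genes of the 2-5A pathway outside the OAS family, 5 were tested, of which none rose, 3 fell and 2 did not pass the test. At an unadjusted p under 0.05 the edgeR fit likewise had 0 higher and 3 lower, and DESeq2 called 0 higher. Over all genes tested 16.1% rose and 17.5% fell at an adjusted p under 0.05. The median log2 fold change was -0.55 for the list and 0.01 for all genes. ENPP1, a phosphodiesterase at the cell surface that can degrade 2-5A, fell from 3.01 ± 0.291 to 0.743 ± 0.2400 CPM (SD, n = 3), a log2 fold change of -2.02 (SE 0.31, edgeR adjusted p = 1.07e-05). FLNA, an actin cross-linking protein, fell by 0.67 on the log2 scale (SE 0.08, edgeR adjusted p = 2.60e-07). AKAP7, a relative of the 2-5A phosphodiesterases, had a log2 fold change of -0.55 (SE 0.18, edgeR adjusted p = 0.0203), and its call was lost without pGIPZ-NC replicate 1 (adjusted p = 0.0813), pGIPZ-NC replicate 2 (0.105) or shUSP39 replicate 1 (0.0509). ABCE1, an ATPase of ribosome recycling, had a log2 fold change of -0.13 (adjusted p = 0.385, edgeR), and GSPT1, a translation release factor, one of -0.07 (adjusted p = 0.601, edgeR). PDE12, a phosphodiesterase that degrades 2-5A, had 1, 1 and 8 counts in the controls and 8, 7 and 9 in the knockdown libraries, too few to be tested.

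Of 14 sensors of double-stranded RNA and their partners, 12 were tested, of which 4 rose, none fell and 8 did not pass the test. Over all genes tested, 16.1% rose and 17.5% fell at an adjusted p under 0.05. By edgeR 1 gene was lower at an unadjusted p under 0.05, by DESeq2 0 fell and by limma-voom 1 fell, which was TLR3. The median log2 fold change of the list was 0.09. The 3 RIG-I-like receptors, which sense RNA in the cytoplasm, had the largest rises among the genes that passed the test. IFIH1 (MDA5) rose from 4.14 ± 0.537 to 29.5 ± 1.39 CPM (SD, n = 3), a log2 fold change of 2.83 (SE 0.12, edgeR adjusted p = 1.45e-16). DHX58 (LGP2) rose by 1.68 (SE 0.13, edgeR adjusted p = 8.42e-11) and DDX58 (RIG-I, the sensor on which OASL acts) by 1.59 (SE 0.12, edgeR adjusted p = 6.03e-10), both on the log2 scale. TICAM1, the adaptor of TLR3, rose by 0.33 (SE 0.06, edgeR adjusted p = 1.00e-04). TLR3 itself had a log2 fold change of -1.51 (adjusted p = 0.0855, edgeR) and CGAS, a sensor of DNA, one of 0.55 (adjusted p = 0.537, edgeR). The others, EIF2AK2 (PKR), MAVS, ADAR, PRKRA, IRF3 and DHX36, did not pass the test, with log2 fold changes from -0.25 (DHX36) to 0.20 (IRF3). Among them, ADAR was at -0.01 (adjusted p = 0.952, edgeR) and EIF2AK2 at -0.20 (adjusted p = 0.805, edgeR). NOD2 had too few counts to be tested, and ZBP1 was not analysed here. For EIF2AK2 only 1 of 3 protein-coding RefSeq transcripts was counted, so its level may be too low.

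Of 16 reported genes of interferon production and signalling, 12 were tested, of which 5 rose, 1 fell and 6 did not pass the test. The shares over all genes tested were 16.1% higher and 17.5% lower at an adjusted p under 0.05. The median log2 fold change of the list was 0.42, also with IFNL1 at the lower bound given next. The ligand IFNL1, a type III interferon, had 0 counts in all 3 pGIPZ-NC libraries and 137, 108 and 75 counts in shUSP39 replicates 1, 2 and 3. It was at least 35.3-fold higher, against a floor of 3 counts per control library (adjusted p = 1.01e-10, edgeR). IFNB1, the type I interferon of most cell types, had 0, 4 and 0 counts in the controls and 50, 79 and 104 in the knockdown libraries. It rose by 5.76 on the log2 scale (SE 0.64, edgeR adjusted p = 5.02e-08). IFNL1 and IFNB1 passed the filter on low counts only through the shUSP39 libraries, where they were high. With at least 10 counts required in every library neither was tested, and of the 9 genes then tested 4 rose and 1 fell. Transcripts of these 2 ligands were present in each of the 3 shUSP39 libraries, in which OAS2 and OASL were also high. With 2 groups, a relation between the ligands and the OAS genes cannot be told apart from the group difference, and it was not tested. IFNL2 had 0 counts in the controls and 0, 11 and 5 in the knockdown libraries, and IFNL3 had 0 in the controls and 8, 10 and 4 in the knockdown libraries, and neither passed the filter on low counts. With no filter both passed the test, IFNL3 with an adjusted p of 0.0217 and IFNL2 with one of 0.0495 by edgeR. Set against the floor of 3 counts per control library, the shUSP39 mean was 2.43-fold for IFNL3 and 1.81-fold for IFNL2. IFNL2 overlapped between groups, since shUSP39 replicate 1 had 0 counts as the controls did.

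The factors downstream of the interferon receptors differed by less than the 2 ligands. SOCS1, a feedback inhibitor, rose by 1.52 on the log2 scale (SE 0.47, edgeR adjusted p = 0.0118), a call lost without shUSP39 replicate 2 (adjusted p = 0.144). IRF9, a subunit of ISGF3, rose by 0.44 (SE 0.10, edgeR adjusted p = 0.000754), and IRF1 rose as well. From shUSP39 replicate 1 alone, with the spread of the controls only, the log2 fold changes of IRF9, IRF1 and SOCS1 were 0.33, 0.26 and 1.11. TYK2, a kinase that associates with the receptors, fell by 0.19 on the log2 scale (SE 0.04, edgeR adjusted p = 0.0012). IRF7, itself an interferon-stimulated gene, had a log2 fold change of 1.11 (adjusted p = 0.0529, edgeR), and IFNLR1, the type III interferon receptor, one of 0.82 (adjusted p = 0.328, edgeR). IFNAR1, IL10RB, STAT2 and USP18 did not pass the test, with log2 fold changes from -0.25 (STAT2) to 0.21 (IL10RB). USP18, with 1493 to 1722 counts in the controls, had a log2 fold change of -0.05 (adjusted p = 0.590, edgeR). For STAT2 the adjusted p was 0.651 (edgeR). JAK1 had too few counts to be tested, and IFNAR2 was not analysed here. Only 1 of 8 protein-coding RefSeq transcripts of JAK1 and 1 of 7 of STAT2 were counted, so the levels of both may be too low.

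**Figure D3:**
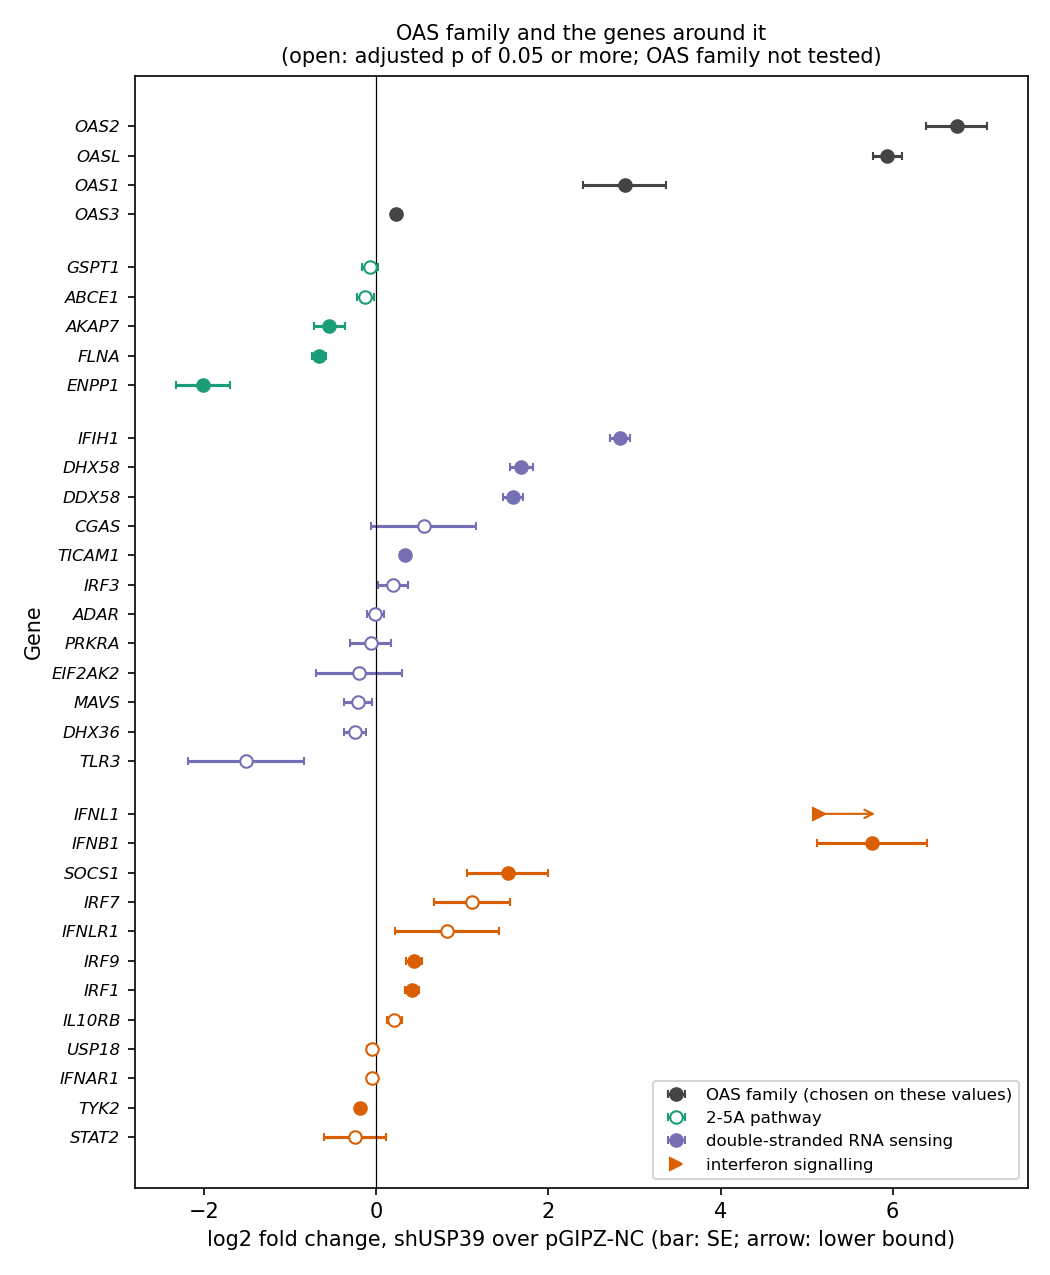
log2 fold change of shUSP39 over pGIPZ-NC (x axis) for the 4 OAS genes and the tested genes reported of the 3 lists (y axis), with bars for the standard error and open circles for genes at an adjusted p of 0.05 or more in the edgeR quasi-likelihood test. IFNL1 is drawn at its lower bound with an arrow, and the OAS genes are drawn filled without a test.

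The genes around the OAS loci were examined to see how far the difference extended. Of the 3 nearest tested genes on each side of the cluster and of OASL, 11 are reported, of which none rose and 3 fell, against 16.1% and 17.5% of all genes. The counts at an unadjusted p under 0.05 were also 0 higher and 3 lower, and DESeq2 called 0 higher. On the side of the cluster, the nearest reported genes were CFAP73, 138 kb beyond OAS2, with a log2 fold change of -0.25 (adjusted p = 0.706, edgeR), and PTPN11, 396 kb before OAS1, with 0.10 (adjusted p = 0.604, edgeR). Around OASL, SPPL3 lay 113 kb away with a log2 fold change of 0.06 (adjusted p = 0.405, edgeR), and P2RX4 lay 171 kb away on the other side with 0.32 (adjusted p = 0.729, edgeR). The 3 neighbours that fell were HECTD4 by 0.22, ACADS by 0.76 and ANAPC5 by 0.27 on the log2 scale. OAS3, at 0.23, lies between OAS1 and OAS2 and had a smaller fold change than either.

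**Figure D4:**
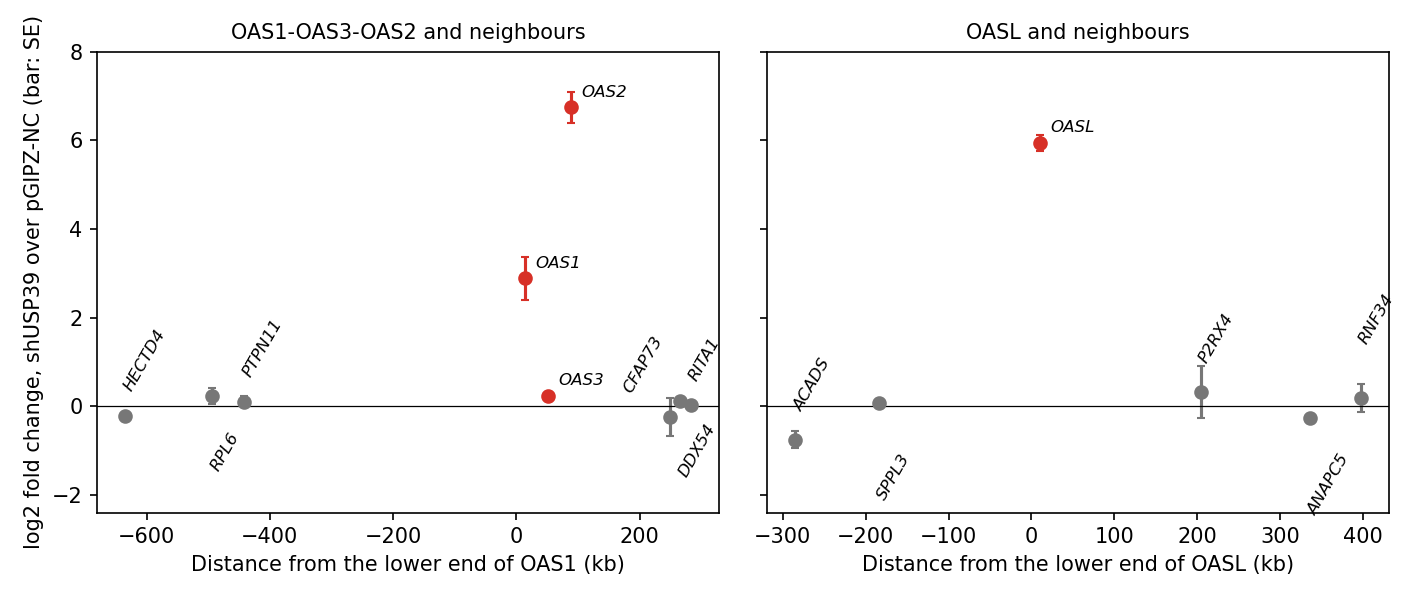
log2 fold change of shUSP39 over pGIPZ-NC with its standard error (y axis) against the distance in kb of each gene's centre from the lower end of OAS1 (left) or OASL (right), with OAS genes in red and the reported neighbours in grey. OAS1, OAS2 and OASL stand above 2 on the log2 scale while the 11 neighbours lie between -0.76 and 0.32.

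The genes whose pattern over the 6 libraries was most like the mean pattern of the 4 members were listed among genes with a mean of at least 1 CPM. Likeness was the root mean square difference of log2 CPM, each centred on its pGIPZ-NC mean. The nearest was GBP4, a guanylate-binding protein known as interferon-induced, with a difference of 0.208 on the log2 scale. It had 4, 3 and 5 counts in the controls and 80, 74 and 80 in the knockdown libraries. PMAIP1 (NOXA, a proapoptotic BCL2 family protein) followed with 0.218, CYP2S1 with 0.275, GRID2IP with 0.422 and LPCAT2 with 0.434. The mean pattern lies between the large change of OAS2 and OASL and the small one of OAS3, so these genes resemble the average and not each member.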

How the data were processed

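Total RNA of 3 pGIPZ-NC and 3 shUSP39 samples of A2780 was sequenced, and groups were taken from the sample titles. The authors deposited 1 table of raw read counts per RefSeq mRNA transcript. The submitters' processing notes name HISAT2, Cufflinks and the build hg19, and the counter is not given in the sources used here. The table's further columns of the authors' own comparison (group means, fold, p and q) were not used. The 21368 transcript rows were summed per gene symbol, after 46 of 47 symbols in date form were replaced. Counts, at 28294819 to 32939264 per library, were scaled by TMM, filtered with filterByExpr and tested with edgeR 4.0.16 (quasi-likelihood, robust, limma 3.58.1, R 4.3.3), with Benjamini-Hochberg adjustment over 10695 genes. A gene rose or fell at an adjusted p under 0.05. The p-values measure the spread between these libraries, which could be partly technical. On simulated data 200 of 10522 genes were changed by 1.5 on the log2 scale, of which 100% were recovered with 1 false call. Only genes with a control mean over 1 CPM were changed there, and all genes had the same dispersion. OAS1, OAS2, OASL, IFNB1 and IFNL1 lay below that level, so the recovery does not apply to them. The members and lists were chosen with earlier results of these data known. Values are given for the members with their transcripts, for up to 6 genes of each list in the order of absolute log2 fold change, and for the 5 genes most like the members. Further list genes, the neighbours, the markers and the untested genes given values were picked after their values were seen. Gene positions are from GENCODE 44 on GRCh37, promoters from RefSeq on GRCh38.p14. Alternatives were other scalings, filters, DESeq2 1.42.0, limma-voom, a replicate block, single libraries left out, shUSP39 replicate 1 alone, the highest transcript per gene, a prior count of 2 and log2(CPM + 1). Some genes of the lists and some neighbours are not reported here and were left out of the counts.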

Additional observations from a re-analysis of the deposited data

How the results depend on the processing

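No result changed direction under the alternatives run. With at least 10 counts required in every library, 471 genes were called in place of 728, and 2 OAS genes did not overlap between groups, because OAS1 and OAS2 were then not tested. With no filter 940 genes were called, and 9 interferon genes passed in place of 6, namely IFNL2, IFNL3 and IRF7 in addition. From shUSP39 replicate 1 alone, 2 genes of the 2-5A pathway, 3 of interferon signalling and 1 neighbour passed the adjusted p, in place of 3, 6 and 3. There the controls alone supply the spread, so these counts say nothing about the spread of the knockdown. With single libraries left out 677 to 836 genes were called. The replicate numbers did not pair the libraries (correlations of deviations 0.0688, 0.00477 and 0.0216), and with a replicate block 745 genes were called. On a log2(CPM + 1) scale, which shrinks low genes, the log2 fold changes were 1.34 for OAS1, 3.27 for OAS2 and 4.52 for OASL. That of OAS2 was 6.01 with a prior count of 2 and 7.61 from its highest transcript alone. IRF7 passed the adjusted p with upper-quartile or library-size scaling, no filter, the filter at 10 counts, limma-voom or the block, and without pGIPZ-NC replicate 3 (adjusted p = 0.0208) or shUSP39 replicate 2 (0.0312), and IL10RB with the first 2 scalings. TLR3 passed the adjusted p as lower by limma-voom (adjusted p = 0.0461). Depth limits the fold changes of OAS1 and OAS2 through their few control counts.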
